A study of Mus musculus with 7 samples.

Results

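Activins are dimers of inhibin beta subunits, and inhibins pair a beta subunit with the alpha subunit, so that the same beta genes serve opposing hormones. Activin binds a type II receptor, which recruits and phosphorylates a type I receptor, and the signal then passes to the nucleus through SMAD2 and SMAD3. Follistatin and its relative FSTL3 bind activin and keep it from its receptors. In the ovary, granulosa cells are a main source of inhibin, activin and follistatin, and inhibin lowers the release of follicle-stimulating hormone by the pituitary. The 9 genes described here are Inha (alpha subunit), Inhba and Inhbb (beta subunits), Fst and Fstl3 (follistatins), Acvr1b and Acvr1c (type I receptors) and Acvr2a and Acvr2b (type II receptors). They were taken by name from a table of 18951 genes, and the family was chosen by the normalized counts of Inhbb and Fst, which had been seen to be higher in oocytes without Nlrp2. The difference between genotypes in these 9 genes is therefore given as a description, with the standard error of the fit and without a test.

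RNA came from denuded ovulated oocytes of C57BL/6 females of 4 weeks, in 3 pools from wild-type (WT) and 4 pools from Nlrp2-null mice. Each pool combined about 150 oocytes of 3 to 4 mice of 1 genotype after cumulus-oocyte complexes from the oviduct had been stripped of cumulus cells with hyaluronidase. The labels do not describe the null allele or say that pools came from separate collections, so p-values measure the spread between these pools. NLRP2 is a maternal effect protein stored in the egg, and the series asks how its loss alters the oocyte transcriptome.

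Depth was 71073973 to 96330083 reads per pool. Nlrp2 stood at 15527 to 20130 normalized counts (reads divided by a size factor per pool) in the WT pools and at 1.96 to 107 in the null pools (log2 difference -9.70, SE 0.851, adjusted p = 6.98e-05 in limma), and each of the 4 null pools was lower than any WT pool. All 10 oocyte markers checked were detected in every pool, with a sum of 734946 to 790444 normalized counts in WT and 779206 to 900120 in null pools. Of 33 listed markers of cumulus and granulosa cells 32 were in the table, and they summed to 50049 to 74750 normalized counts in WT and 60099 to 82861 in null pools. Cyp19a1, which encodes aromatase, reached at least 3431 normalized counts in each pool. Its lowest value was in null 4, the pool with the highest sum of these markers. Amh, the anti-Müllerian hormone gene of granulosa cells, was at 0 in the 3 WT pools and in null 2 and null 4, at 2.17 in null 1 and at 4.91 in null 3. Fewer cells of a type and less RNA per cell cannot be told apart in such pools. Library numbers in the labels fall into a lower range (WT 1, WT 2, null 1 and null 2) and a higher range (WT 3, null 3 and null 4).

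The bases just before the start of both beta subunit genes, Inhbb and Inhba, are shown as a description. A link between these bases and the values over the pools was not tested. Both are read 5′ to 3′ on the gene's own strand from the RefSeq promoter table (GRCm38.p6), Inhbb from the minus strand of chr1:119422249-119422498 and Inhba from the plus strand of chr13:16011601-16011850. Capitals mark matches, on either strand, to any of 5 short motifs, spelled out after the sequences, and no matches overlapped in these windows.
Inhbb: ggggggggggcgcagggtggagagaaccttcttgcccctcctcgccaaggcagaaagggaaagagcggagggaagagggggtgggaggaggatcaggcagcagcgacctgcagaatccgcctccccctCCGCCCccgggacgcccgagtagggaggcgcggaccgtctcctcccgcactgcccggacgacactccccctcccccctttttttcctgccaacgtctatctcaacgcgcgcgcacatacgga
Inhba: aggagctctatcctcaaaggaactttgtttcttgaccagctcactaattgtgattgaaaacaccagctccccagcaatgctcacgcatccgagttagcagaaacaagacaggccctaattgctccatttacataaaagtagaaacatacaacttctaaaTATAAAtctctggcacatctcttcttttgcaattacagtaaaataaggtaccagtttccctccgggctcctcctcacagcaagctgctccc

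The Inhbb stretch was 68.0% G or C and held 21 CpG pairs, whereas the Inhba stretch was 43.2% G or C and held 3. Windows of the same length before 32841 RefSeq starts had a median of 52.4%. The Inhbb stretch held 1 Sp1-type motif, GGGCGG, which was present in 32.7% of those windows and is read here on the opposite strand. The Inhba stretch held 1 TATA motif, spelled TATAAA, which was present in 12.4% of windows. Neither stretch held the core of the cAMP response element, searched as TGACG and present in 17.8% of windows. The SMAD-binding motif, searched as CAGAC, was in neither stretch and in 42.2% of windows. The nuclear receptor motif, searched as AGGTCA, was likewise in neither stretch and in 14.0% of windows. These matches describe letters and not binding. Of the 9 genes 8 had an entry in the promoter table.

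Inhbb, on chromosome 1 (119415465 to 119422248, minus strand, GRCm38), encodes the beta B subunit of activin B and inhibin B. It was low in the WT oocyte pools and higher in each null pool. Its normalized counts were 35.8, 14.3 and 8.23 in WT pools 1 to 3 and 217, 63.5, 234 and 847 in null pools 1 to 4. No null pool came as low as the highest WT pool, and null 4 stood far above the remaining null pools. The means were 19.4 ± 14.5 (SD, n = 3) and 340 ± 346 (SD, n = 4), and the log2 difference was 3.73 (SE 0.791), a 13.3-fold difference. WT pools 1 to 3 gave 34, 15 and 10 Inhbb reads, whose 95% Poisson intervals (exact) reach up to 47.5, 24.7 and 18.4 reads. The lowest null pool gave 62 reads (47.5 to 79.5). On the scale of normalized counts the interval of WT 1 reaches up to 50 and that of null 2 starts at 48.7, so the intervals overlap. Reads amplified from so little RNA are not independent molecules, so these intervals cover counting error only. Groups with null higher and no overlap occurred in 4.74% of the 15071 genes with a mean of at least 10 normalized counts, and Inhbb was the only 1 of the 9 genes with this pattern; since the genes were chosen with this contrast seen, nothing is read from that count.

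The size of the Inhbb difference varied with the pools used. Within the lower range of library numbers it was 2.32 on the log2 scale, from 2 pools of each genotype, against 5.60 in the higher range, from 1 WT and 2 null pools. Without null 4 it was 3.11, and without null 3 and null 4 it was 2.78.

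**Figure D1:**
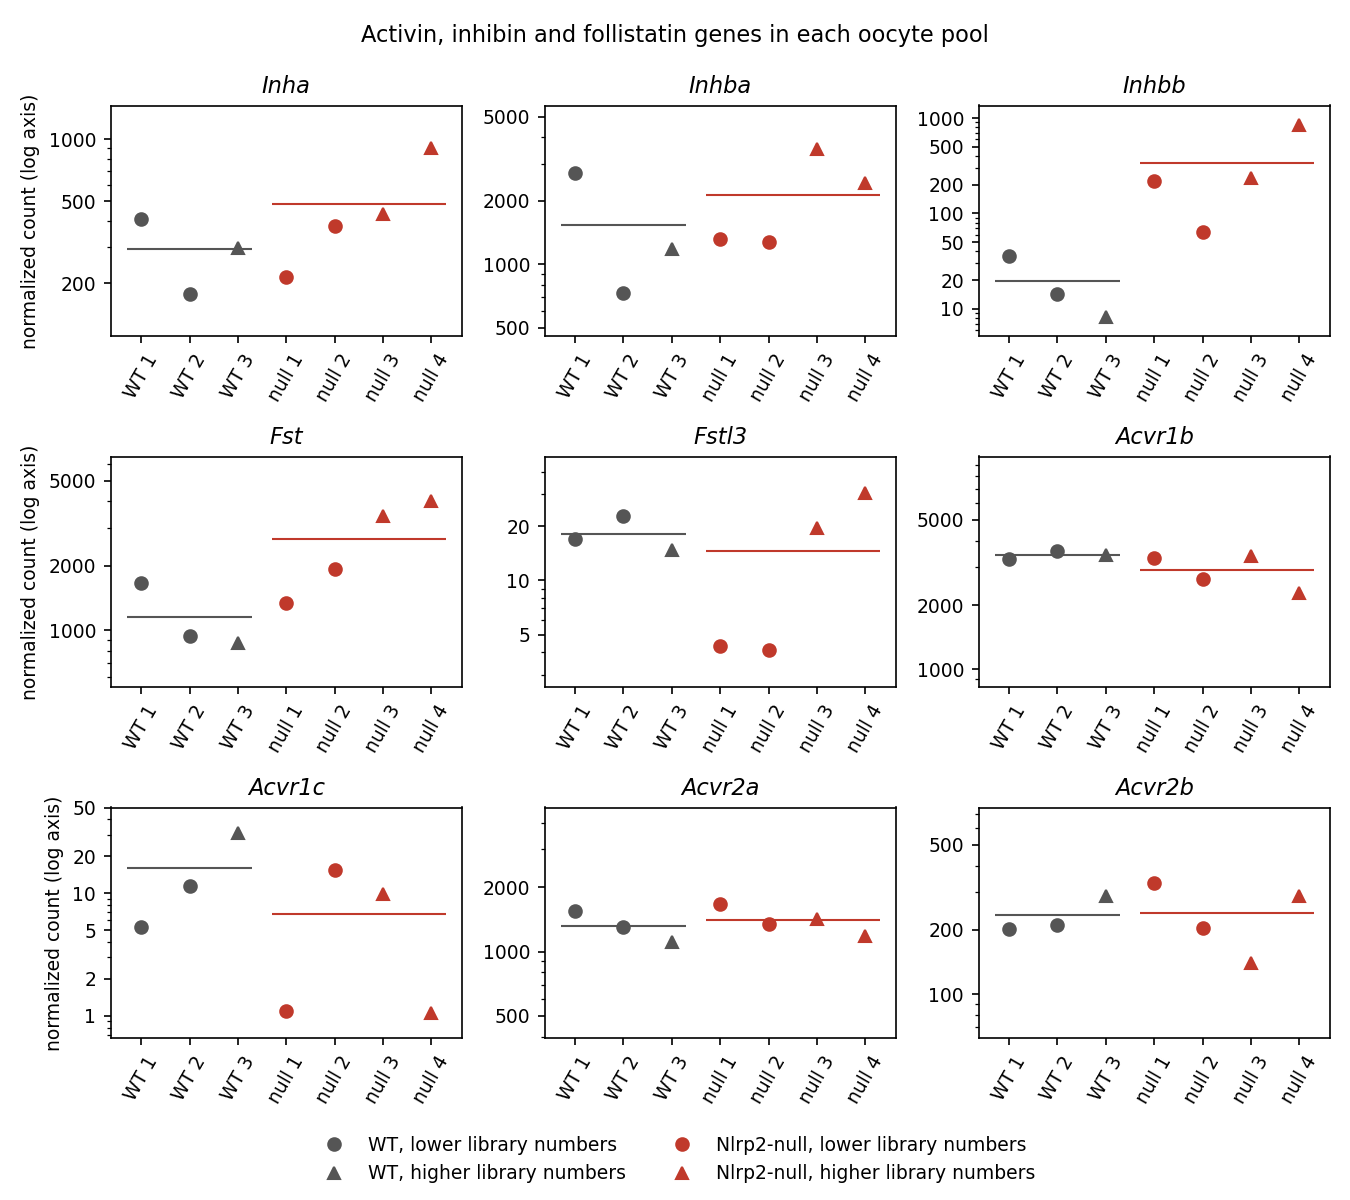
Normalized counts of the 9 genes in each pool (y axes, log scale, a separate range per gene); circles and triangles are pools of the lower and higher range of library numbers, grey is WT, red is Nlrp2-null, and horizontal lines are group means. In the Inhbb panel the 4 null pools, at 63.5 to 847, lie above the 3 WT pools, at 8.23 to 35.8; in the other 8 panels the groups overlap.

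Inhba, on chromosome 13 (16011851 to 16031621, plus strand), encodes the beta A subunit of activin A and inhibin A. WT pools 1 to 3 had 2725, 731 and 1184 normalized counts of Inhba, and null pools 1 to 4 had 1328, 1278, 3542 and 2424. WT 1 was the second highest of the 7 pools, so the groups overlapped. The means were 1547 ± 1045 (SD, n = 3) and 2143 ± 1073 (SD, n = 4), with a log2 difference of 0.55 (SE 0.379). Pools of the lower range of library numbers gave a difference of -0.12 and those of the higher range 1.31. The share of Inhbb relative to Inhba within a pool, as a ratio of normalized counts that does not account for gene length, was 0.0131, 0.0195 and 0.00695 for WT and 0.163, 0.0497, 0.0662 and 0.349 for null pools in order. The lowest null ratio thus lay above the highest WT ratio. Since the ratio uses the Inhbb values by which the family was chosen, nothing is read from this order.

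Inha, on chromosome 1 (75507077 to 75510366, plus strand), encodes the alpha subunit that turns a beta subunit into inhibin. It stood at 408, 177 and 296 normalized counts across WT 1 to 3 and at 214, 379, 431 and 909 across null 1 to 4. Only null 3 and null 4 lay above the highest WT pool, and null 1 was the second lowest of all. The means were 293 ± 115 (SD, n = 3) and 483 ± 299 (SD, n = 4), with a log2 difference of 0.60 (SE 0.429), which was 0.08 within the lower range of library numbers and 1.08 within the higher range.

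Fst, on chromosome 13 (114452290 to 114458951, minus strand), encodes follistatin, the secreted antagonist that binds activin. Across WT 1 to 3 Fst had 1656, 938 and 874 normalized counts, and across null 1 to 4 it had 1336, 1935, 3412 and 4001. Null 2, null 3 and null 4 exceeded every WT pool, and null 1 lay below WT 1. The means were 1156 ± 434 (SD, n = 3) and 2671 ± 1244 (SD, n = 4), with a log2 difference of 1.14 (SE 0.312), a 2.20-fold difference. The difference was 0.37 within the lower range of library numbers and 2.08 within the higher range, and 0.54 without null 3 and null 4. The null pools had the same order in Fst as in the mean of the cumulus and granulosa markers given below, and the part of those cells in the difference was not tested. Fst overlaps an antisense gene over 115 exon bases, and the sources used here do not say if the counting kept strand.

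Fstl3, the second follistatin-type antagonist, was barely detected. It had 16.9, 22.8 and 14.8 normalized counts across WT 1 to 3 and 4.34, 4.10, 19.6 and 30.3 across null 1 to 4, from 4 to 29 reads per pool. Null 1 and null 2 were the lowest pools and null 4 the highest, so the groups overlapped (log2 difference -0.71, SE 1.13). Of its exon bases 1157 overlap Prss57 on the opposite strand, so its few reads cannot be assigned to it with certainty.

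Acvr1b, Acvr2a and Acvr2b had narrower spans between pools than Inha, Inhba, Inhbb and Fst. Acvr1b, on chromosome 15 (101174067 to 101213684, plus strand), encodes the main type I receptor of activin. WT 1 to 3 had 3272, 3594 and 3415 normalized counts of it, and null 1 to 4 had 3307, 2646, 3406 and 2274. Null 2 and null 4 lay below all WT pools, while null 1 and null 3 lay among them. The means were 3427 ± 162 (SD, n = 3) and 2908 ± 541 (SD, n = 4), with a log2 difference of -0.26 (SE 0.149). The highest pool had 1.58 times the lowest, against 5.14 times for Inha, 4.85 for Inhba, 4.58 for Fst and 103 for Inhbb; the median over the 15071 genes, on counts with 1 added, was 2.03.

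Acvr2a, on chromosome 2 (48814109 to 48903269, plus strand), encodes a type II receptor that binds activin first. It stood at 1541, 1302 and 1107 normalized counts across WT 1 to 3 and at 1674, 1341, 1413 and 1188 across null 1 to 4 (log2 difference 0.09, SE 0.181). The groups overlapped almost fully, with means of 1317 ± 218 (SD, n = 3) and 1404 ± 203 (SD, n = 4). The 95% interval of its fold difference ran from 0.818 to 1.39. Acvr2a shares 446 exon bases with Orc4 on the opposite strand, which stood at 2622 to 3144 normalized counts in WT and 2099 to 2332 in null pools.

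Acvr2b, on chromosome 9 (119402118 to 119434995, plus strand), encodes the other type II receptor. Acvr2b had 202, 212 and 287 normalized counts across WT 1 to 3 and 332, 205, 140 and 287 across null 1 to 4. Null pools held both the highest and the lowest value, and the log2 difference was -0.01 (SE 0.389), with a 95% interval of the fold difference from 0.559 to 1.76. Its sign changed under 7 of 19 alternative settings.

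Acvr1c encodes the type I receptor used by activin B and Nodal. It gave 5, 12 and 38 reads across WT 1 to 3 and 1, 15, 10 and 1 across null 1 to 4. WT 3 was the highest pool and null 1 and null 4 the lowest, but null 2 and null 3 lay above WT 1, so the groups overlapped. The log2 difference was -1.37 (SE 1.42), with a 95% interval of the fold difference from 0.0475 to 3.13.

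Levels of different genes were compared as normalized counts per kilobase of exon (GENCODE M21, all exons of a gene merged). In WT pools Acvr1b was highest at 776 ± 36.6 (SD, n = 3) per kilobase, and its pools did not overlap those of any other of the genes. Fst (252 ± 94.6), Inhba (242 ± 164), Acvr2a (232 ± 38.3) and Inha (199 ± 78.3) followed, and each overlapped its neighbour in this order. Acvr2b came next at 59.5 ± 11.9, below every WT value of Inha. Fstl3 (7.43 ± 1.70), Inhbb (4.57 ± 3.41) and Acvr1c (1.72 ± 1.46) were lowest, and neighbours among them overlapped. In null pools Inhbb, at 80.0 ± 81.3 (SD, n = 4) per kilobase, had a higher mean than Acvr2b at 61.3 ± 21.7, with overlapping pools. Inhbb lay below Acvr2b in null 1 and null 2 and above it in null 3 and null 4 (199 against 73.0 in null 4). Fst in null pools, at 582 ± 271, overlapped Acvr1b at 658 ± 122.

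**Figure D2:**
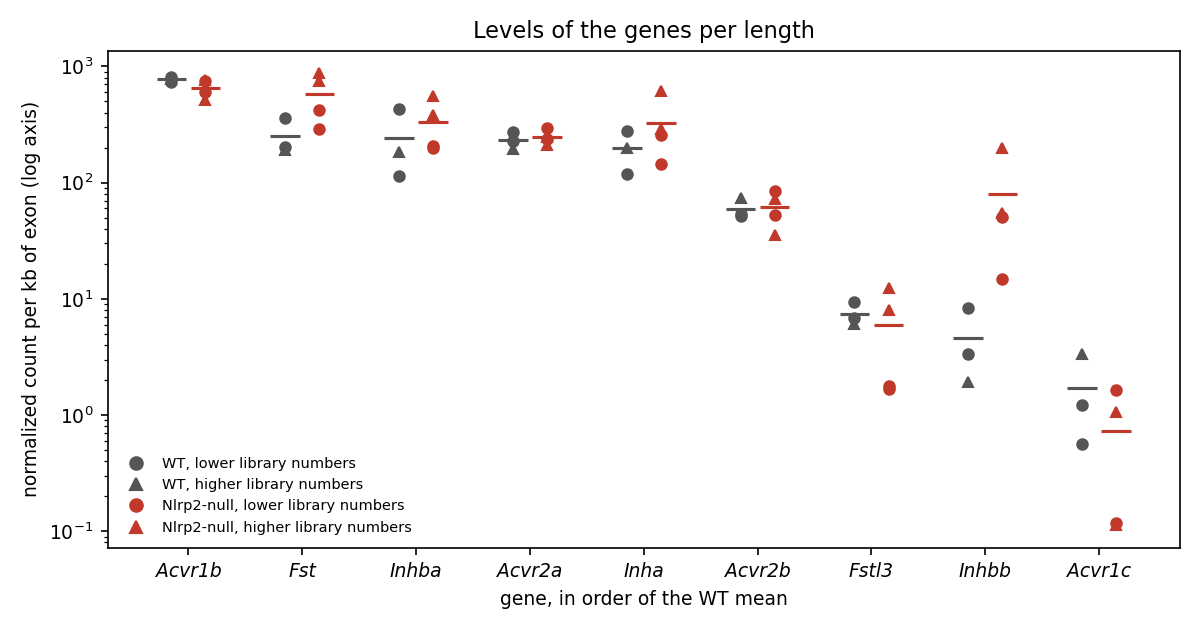
Normalized counts per kilobase of exon (y axis, log scale) for the 9 genes in order of their WT mean; grey is WT, red is Nlrp2-null, circles and triangles are the lower and higher range of library numbers, and bars are group means. Inhbb moves from 4.57 in WT to 80.0 in null pools, while Acvr1b, Acvr2a and Acvr2b keep overlapping ranges.

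Because cumulus and granulosa cells make inhibin subunits and follistatin, the level of their markers was set beside the genes. The mean log2(normalized count + 1) of the 29 markers with a mean of at least 10, none of them among the 9 genes, was 8.98, 7.72 and 8.05 across WT 1 to 3 and 8.08, 8.40, 9.01 and 9.56 across null 1 to 4. Null 4 was highest and WT 2 lowest, and the groups overlapped. An exact permutation test (two-sided) of the difference of 0.51 between genotypes gave p = 0.343, and the smallest p that its 35 splits allow is 0.0286. It was -0.11 within the lower range of library numbers and 1.23 within the higher range. The 8 listed genes of oviduct epithelium summed to 20741 to 36526 normalized counts per pool, with 30339 in null 4. Cdh1 alone gave 20358 to 36101 of that sum, so the sum mainly follows Cdh1 and no level of oviduct RNA is read from it. The mean log2(normalized count + 1) of the 7 with a mean of at least 10 was 7.96 in null 4. In the other pools it was 5.63 to 6.85. Of the 8 listed genes, Epcam (849 normalized counts, against 78.0 to 199 elsewhere), Krt8, Krt18 and Msln were highest in null 4. Ovgp1 and Cdh1 were highest in null 1, Pax8 in WT 1 and Foxj1 in WT 2, and null 4 had neither Pax8 nor Foxj1. The 5 genes of theca and stroma in the table, of 7 listed, summed to 1516 in null 4 and to 116 to 234 in the other pools, and each was highest in null 4. The part of these cells in the values of null 4 was not tested.

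Over the 7 pools Inha followed the marker mean closely (Pearson r = 0.945, exact permutation p = 0.000595; Spearman rho = 0.964, exact permutation p = 0.00278). Adjusted over the 9 relations computed, p was 0.00536 for r and 0.025 for rho, and without null 4 and WT 2, the pools farthest from the median marker mean, r was 0.842. Fst and Inhbb, whose values served to choose the family, are given without p, as a description. For Fst r was 0.900 and rho 0.929, with r = 0.780 without those pools. For Inhba r was 0.878 (exact permutation p = 0.0153, adjusted 0.0459) and rho 0.857 (exact permutation p = 0.0238, adjusted 0.0714), with r = 0.945 without those pools. The adjustment counts the relations of Fst and Inhbb among the 9. The smaller p of Fst lowers the adjusted values for Inhba, so no call is read from them. For Inhbb r was 0.712 and rho 0.821. Without those pools, the highest and lowest in the marker mean, r for Inhbb was 0.297 over a narrower range of that mean. The 4 receptor genes and Fstl3 had r from -0.644 for Acvr1b to 0.422 for Fstl3, with adjusted permutation p from 0.232 to 0.929. Of the 15071 genes 5.87% had an r above 0.8 with this mean. Taken within genotypes, as deviations from each group's mean, r was 0.934 for Inha, 0.947 for Fst, 0.857 for Inhba and 0.751 for Inhbb. The ranges of library numbers hold 4 and 3 pools, too few for values within them.

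**Figure D3:**
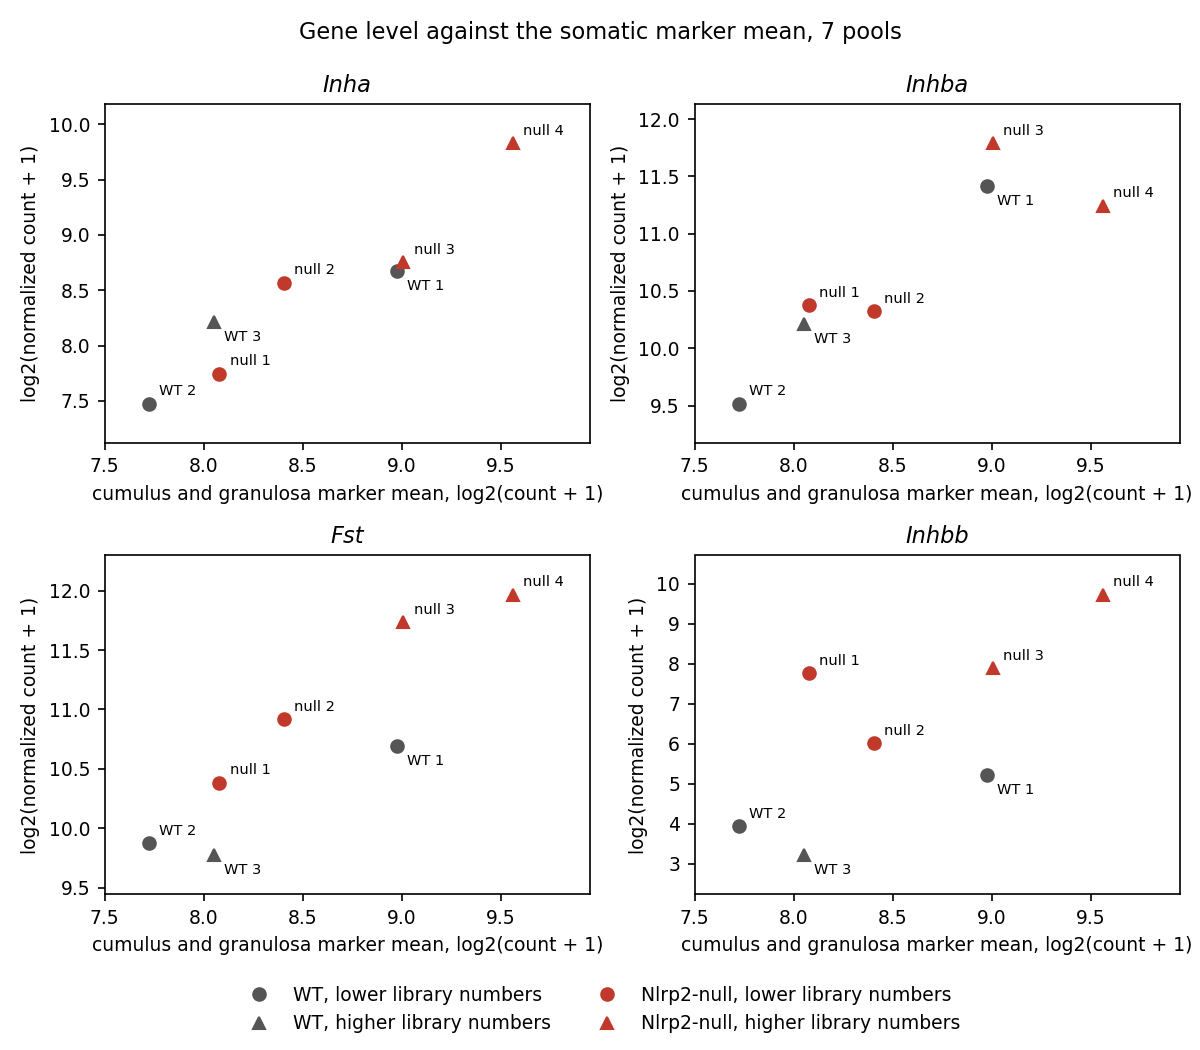
Log2(normalized count + 1) of Inha, Inhba, Fst and Inhbb (y axes) against the mean log2 level of 29 cumulus and granulosa markers (x axis) in the 7 pools; grey is WT, red is Nlrp2-null, circles and triangles are the lower and higher range of library numbers. WT 1 and null 3 sit side by side on the x axis (8.98 and 9.01) with 35.8 and 234 normalized counts of Inhbb and 408 and 431 of Inha. These pools are of different ranges of library numbers and differ in single markers. Listed genes of immune and blood cells summed to 605 normalized counts in WT 1 and 2599 in null 3.

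Pools with nearly equal marker means are set side by side as a description, since the values include those by which the family was chosen. Pairs of a WT and a null pool within 0.05 of each other, a limit chosen after the values were seen, were WT 1 with null 3 and WT 3 with null 1. In the null pool of these pairs Inhbb stood at 6.55 and 26.3 times the WT value, Fst at 2.06 and 1.53 times, Inhba at 1.30 and 1.12 times, and Inha at 1.06 and 0.722 times. Each pair is 1 pool against 1, with no replicate. In each pair 1 pool was of the lower range of library numbers and 1 of the higher. Genotype and range therefore cannot be told apart in these ratios. Pools with nearly equal marker means also differed in single markers. With the marker mean as a covariate the log2 differences were 2.95 (SE 0.714) for Inhbb, 0.65 (SE 0.180) for Fst, 0.04 (SE 0.328) for Inha and 0.00 (SE 0.240) for Inhba. The part of RNA from somatic cells in the levels of Inhbb, Fst, Inha and Inhba was not tested.

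Correlations among the genes over the 7 pools are given as a description, since they share libraries. Pearson r of log2 values was 0.863 for Inhbb with Fst, 0.846 for Inha with Fst, 0.796 for Inhba with Fst and 0.725 for Inha with Inhba. It was 0.642 for Inhbb with Inha and 0.598 for Inhbb with Inhba. Fstl3 had lower values, of 0.0351 with Inhbb, 0.257 with Fst, 0.300 with Inhba and 0.389 with Inha. Acvr1b went the other way from Inha (-0.799) and from Fst (-0.657).

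The genes most like each in pattern were sought among 10467 named genes with a mean of at least 100 normalized counts, by Pearson r over the 7 pools. For Inhbb they were Dnaja4, a co-chaperone gene (0.989), Slc6a6, the taurine transporter gene (0.988), and Rbpms2, an RNA-binding protein gene (0.982). Slc6a6 stood at 16822 to 18298 normalized counts in WT and 19535 to 22413 in null pools, so its span was far narrower than that of Inhbb. For Fst they were Capn2, a calpain gene (0.989), Ftl1, the ferritin light chain gene (0.987), and Tpm1, a tropomyosin gene (0.981). For Inhba they were Diap2, listed under that name (0.989), Sh3gl2, an endophilin gene (0.989), and Fosl2, an AP-1 transcription factor gene (0.986). With 7 pools and this many candidates, such values are a description only.

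Of 59 other genes of the activin, TGF-beta and BMP pathways 52 were in the table and 41 were tested. None passed an adjusted p of 0.05 in limma, edgeR or DESeq2, which called 0.0664%, 0.0464% and 1.54% of all genes with an adjusted p. In limma 5 of the 41 had an unadjusted p under 0.05, beside 10.2% of the 15071 genes, and each was higher in null pools, beside 5.28% of all genes higher at that level. The median log2 difference of the 41 was 0.11, beside 0.01 for all genes, and 27 of them were positive, beside 50.7% of all genes.

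The ligand genes Gdf9 and Tgfb2 had high counts and small differences between groups. Gdf9, an oocyte growth factor that drives granulosa cells, stood at 219677 ± 16500 (SD, n = 3) in WT and 253831 ± 27901 (SD, n = 4) in null pools (log2 difference 0.20, SE 0.0888, limma adjusted p = 0.453). Tgfb2, a TGF-beta ligand gene, was at 31559 to 34036 normalized counts in WT and 37143 to 38756 in null pools. Its groups did not overlap, but the difference was small (0.20, SE 0.0741, limma adjusted p = 0.378). In all, 5 of the 41 genes had groups without overlap, beside 9.91% of all genes. Of 10 tested ligands 6 were positive, and of 7 tested receptors 6.

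Among 7 tested antagonists 5 had positive differences. Bambi, a decoy receptor gene, had 46.4, 4.75 and 14.0 normalized counts across WT 1 to 3 and 94.3, 67.6, 496 and 31.4 across null 1 to 4 (2.66, SE 0.959, limma adjusted p = 0.366). Null 4 lay below WT 1, and null 3 was far above the rest. Fstl1, a follistatin-like secreted protein gene, stood at 1016 ± 75.3 (SD, n = 3) and 1714 ± 795 (SD, n = 4) (0.64, SE 0.272, limma adjusted p = 0.437), highest in null 4.

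The 15 tested SMAD and regulator genes had a median log2 difference of 0.01. Skil, which encodes the SMAD co-repressor SnoN and is itself a target of TGF-beta signals, had the smallest p of the list. It had 1688, 733 and 1017 normalized counts across WT 1 to 3 and 1409, 1561, 2385 and 2046 across null 1 to 4 (0.75, SE 0.251, limma adjusted p = 0.328). Its groups overlapped through WT 1. Smad1, which acts for BMP receptors, was at 2721 ± 630 (SD, n = 3) and 3701 ± 1171 (SD, n = 4) (0.42, SE 0.206, limma adjusted p = 0.506). Smad2 and Smad3, which carry the activin signal, had log2 differences of -0.03 (SE 0.0921) and 0.11 (SE 0.0791).

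**Figure D4:**
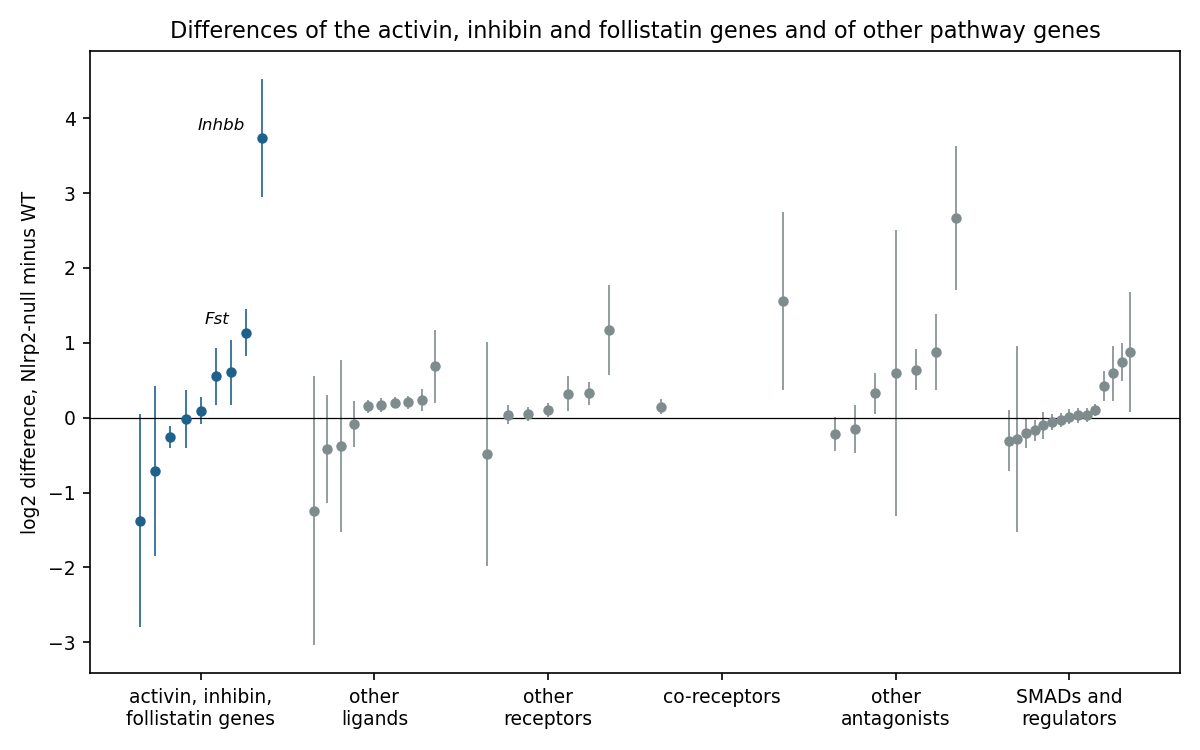
Log2 difference, Nlrp2-null minus WT (y axis), with its standard error from limma as bars, for the 9 activin, inhibin and follistatin genes (blue) and 41 other tested pathway genes by class (grey). Inhbb at 3.73 lies above every other point, Bambi at 2.66 is the next highest, and most ligand, receptor and SMAD genes lie near 0.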

How the data were processed

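RNA was sequenced from 3 WT and 4 Nlrp2-null pools of oocytes. For each pool the deposited table gives a signal, the reads per gene over a size factor, as the authors' table name and its values show. The submitters' processing notes list the builds GRCm38 and mm10 and, with no role, HOMER, STAR 2.5.0a, TopHat2 2.0.9, HTSeq, featureCounts 1.5.0-p1, DESeq and DESeq2 1.22.2. The counter used for this table, its annotation and its strand setting: not given in the sources used here. Each value was a whole multiple of its pool's step within 0.01 for 100% of values, so whole reads were recovered. A second deposited table, of transcripts without gene names, was not used.

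Null minus WT was fitted in limma 3.58.1 (R 4.3.3, trended prior variance) to log2(normalized count + 1) of the 15071 genes with a mean of at least 10, and genes were called where the p adjusted by Benjamini-Hochberg was under 0.05. Fold differences on this scale understate those of low genes. All 9 genes passed the filter, Acvr1c through its WT pools, and no list was tested as a set. edgeR 4.0.16 and DESeq2 1.42.0 on recovered reads, other pseudocounts (0.5, 10), filters (none, 100) and scalings, covariates, a replicate block and fits without pools were alternatives. DESeq2 gave no adjusted p for 2080 genes, among them Fstl3 and Acvr1c, which were left so. The genes, lists and alternatives were chosen with earlier results of these data known. Beside the 9 genes and Nlrp2 the text names the 6 other pathway genes with the smallest p, the 3 genes most like Inhbb, Fst and Inhba each, leaving out predicted genes and pseudogenes, and, named for what they mark or do, Orc4, Smad2, Smad3, Cyp19a1, Amh and the oviduct markers.

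No pair of pools within a genotype agreed within sampling noise (smallest chi-square over its degrees of freedom 36.6).

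Of 6 listed genes of immune and blood cells 4 were in the table, with a sum of 2599 normalized counts in null 3 and 197 to 762 in the other pools. Their mean log2(normalized count + 1) was 6.57 in null 3 and 3.03 to 6.53 in the other pools.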

Additional observations from a re-analysis of the deposited data

Results flagged for a closer look

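Bambi, the decoy receptor gene, stood at 496 normalized counts in null 3, far from the other null pools (31.4 to 94.3). Of 17 sets of 4 null pools examined 1 had such an isolated pool. Chance isolates about 1 in 20 where values are normally distributed, which was not tested for these counts.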

How the results depend on the processing

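Of the values of the 9 genes under alternative settings, 168 moved by less than 1 SD between pools and 1 did not, Fstl3 without null 3 and null 4 (-1.86). Inhbb stayed positive in 19 of 19 settings (2.78 to 4.34), as did Fst (0.54 to 1.43) and Inha (0.04 to 0.93). Inhbb and Fst were chosen with their higher null values seen, so nothing is read from their sign. Without null 3 and null 4 Inhba was -0.03 and the marker mean difference -0.01, and Acvr2a was -0.02 without WT 3. The 10 calls over all genes became 6 with equal medians, 200 in DESeq2 and 19 with the marker mean as a covariate, and 2 (without null 3) to 16 (without null 1) when a pool was left out. Without null 3 and null 4 there were 0 calls in limma (1080 genes with an unadjusted p under 0.05), and Nlrp2 lost its call (-9.11, adjusted p = 0.133); that fit has 5 pools. The other causes were not tested. No other pathway gene was called in any of 19 settings. With the replicate number as a block there was 1 call over all genes; same-numbered pools correlated at -0.163, 0.0192 and -0.0121 in their deviations, so the numbers do not pair the pools, and null 4 has no partner in that fit. Fstl3 and Acvr1c could not be fitted with a mean of at least 100. Depth limits Acvr1c, Fstl3 and the WT level of Inhbb.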
